A study of Arabidopsis thaliana with 16 samples.

Results

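WT seeds imbibed on NaCl were compared with *dog1-3* seeds imbibed without it, to find the genes that set the salt-treated wild type apart from the unsalted mutant and those that were alike in both. The comparison took 8 of the 16 libraries of the study, 4 per group, chosen by their labelled genotype and treatment and not by any measured value. The groups were WT NaCl (accession Col-0 on medium with 100 mM NaCl) and *dog1-3* mock (a T-DNA insertion mutant of *DOG1* in the same background, on medium without NaCl). In all groups freshly harvested seeds were imbibed at 4°C for 72 h on agar with MS salts before RNA was extracted for 3'RNA-seq, which counts reads from the 3' ends of polyadenylated transcripts. The mutant group stood for 1 insertion line. The 2 groups differed in genotype and in treatment at once, and mock and NaCl libraries had also been pooled separately for sequencing, so that treatment and library pool cannot be told apart. The other 8 libraries, *dog1-3* NaCl and WT mock, shared no library with these groups and differed by the same treatment and the opposite genotype. They were used to show on which side each genotype and each treatment lay in a second, separate pair of groups. The labels did not say whether replicates came from separate seed batches, and the p-values measure the spread between these samples.

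*DOG1* (*DELAY OF GERMINATION 1*) is a main regulator of seed dormancy in Arabidopsis, and seeds without it germinate soon after harvest. It acts together with abscisic acid (ABA), the hormone that holds dry seeds dormant and blocks germination under salt or drought. ABA works through PYR/PYL receptors, which inhibit PP2C phosphatases and so release SnRK2 kinases, and these activate bZIP factors such as ABI5 that bind promoter elements with an ACGTG core. Among the genes under this control are those of the late embryogenesis abundant (LEA) proteins, which protect dry cells, and of storage proteins and oleosins. Gibberellin acts the other way and promotes germination, with expansins and related enzymes loosening the cell walls of the embryo and endosperm.

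The promoters of 4 genes are given as examples of the letters counted, and they do not stand for their groups. *LEA7* and *RD29B* were lower in WT NaCl and are a LEA gene and an ABA-induced dehydration gene, and *EXPA8* and *GASA6* were higher and are an expansin gene and a gene of the gibberellin-regulated GASA family. Each run is the 250 bases before the annotated gene start in the RefSeq assembly TAIR10.1, written 5′ to 3′ on the strand of the gene, and capitals mark ACGTG or its reverse complement CACGT, where matches that overlap run together. *LEA7* lay at chr1:19619474-19619723 on the plus strand, *RD29B* at chr5:21236771-21237020 on the plus strand, *EXPA8* at chr2:16950706-16950955 on the minus strand and *GASA6* at chr1:28052780-28053029 on the plus strand.
LEA7: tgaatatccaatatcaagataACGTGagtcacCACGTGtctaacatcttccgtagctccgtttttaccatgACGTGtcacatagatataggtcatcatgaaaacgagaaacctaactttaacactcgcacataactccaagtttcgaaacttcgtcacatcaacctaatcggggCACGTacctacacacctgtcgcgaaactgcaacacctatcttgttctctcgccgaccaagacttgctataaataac
RD29B: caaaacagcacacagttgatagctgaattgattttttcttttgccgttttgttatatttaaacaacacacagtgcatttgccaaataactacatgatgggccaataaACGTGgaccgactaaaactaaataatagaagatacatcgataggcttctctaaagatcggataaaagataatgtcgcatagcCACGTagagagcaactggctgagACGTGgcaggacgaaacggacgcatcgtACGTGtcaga
EXPA8: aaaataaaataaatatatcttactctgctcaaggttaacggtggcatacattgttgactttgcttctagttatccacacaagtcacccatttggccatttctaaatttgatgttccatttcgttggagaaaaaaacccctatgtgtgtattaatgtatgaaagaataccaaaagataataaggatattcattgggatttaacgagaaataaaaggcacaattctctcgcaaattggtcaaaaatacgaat
GASA6: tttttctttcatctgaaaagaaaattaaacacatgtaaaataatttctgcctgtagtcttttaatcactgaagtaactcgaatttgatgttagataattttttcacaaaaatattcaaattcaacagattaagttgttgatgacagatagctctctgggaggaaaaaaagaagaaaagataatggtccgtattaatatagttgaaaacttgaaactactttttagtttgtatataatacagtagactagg
The motif was matched 5 times before *LEA7* and 4 times before *RD29B*, and was not found in the windows before *EXPA8* and *GASA6*. A CACGTG site, such as that before *LEA7*, holds both orientations and was counted once for each. Either orientation was present before 23.9% of the 12356 tested protein-coding genes of the nucleus, so that most had no match, like *EXPA8* and *GASA6*.

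*DOG1* itself was measured first. It had 161, 124, 169.7 and 125 CPM in WT NaCl, against 14.9, 19.0, 14.3 and 14.2 CPM in *dog1-3* mock, where CPM are TMM-scaled counts relative to library size. All WT NaCl libraries lay above all *dog1-3* mock libraries, and the mean was 145 ± 23.9 CPM in WT NaCl, against 15.6 ± 2.30 CPM in *dog1-3* mock (SD, n = 4 each). The difference was log2FC 3.18, SE 0.17, adjusted p = 1.03e-18 by edgeR's quasi-likelihood test with Benjamini-Hochberg adjustment, and an exact two-sided permutation test of the CPM gave p = 0.0286, the smallest that 4 against 4 libraries allow. The mutant libraries retained 10.8% of the WT NaCl level, with 25 to 51 counts per library, so that counts at the locus were reduced and not at 0. These are reads of the locus, whose strand is not stated. In the other pair *DOG1* had 18.9 ± 3.04 CPM in *dog1-3* NaCl and 80.5 ± 16.4 CPM in WT mock.

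Library totals were 1725172 to 2086789 counts in WT NaCl and 1751431 to 2751027 counts in *dog1-3* mock, and the 20 highest genes took 21.1% and 20.9% of them on average. The 9 markers of mature seeds, which are storage protein and oleosin genes, summed to 46990 to 70169 CPM in WT NaCl and to 74798 to 88659 CPM in *dog1-3* mock, with none at 0 in all libraries. The 5 endosperm markers summed to 16681 to 24327 CPM in WT NaCl and 25893 to 34255 CPM in *dog1-3* mock, nearly all of it *EPR1*. The 4 seed coat flavonoid genes were hardly counted, at 1.41 to 4.50 CPM in WT NaCl and 1.72 to 3.20 CPM in *dog1-3* mock, and *TT10* had no count. The marker sums of mature seed and endosperm thus did not overlap between the groups, beside 31.1% of all tested genes taken singly. The endosperm sum mainly shows *EPR1*, whose change sat at the fold limit. Of the 4 endosperm markers tested 1 was lower and 3 were neither called nor alike, beside 9.44% and 43.4% of all genes. The part of either sum in the results below was not tested. Of 123 genes named here, not counting the dehydrin genes *ERD14*, *XERO1* and *XERO2*, 31 overlap an annotated gene on the opposite strand. Among them are *GASA6*, *LEA7*, *RAB18*, *TIP3;1*, *TIP3;2*, *AVP1*, *MFT*, *NRT1.8*, *XTH15*, *CYSA* and *Cpn60beta2*, and without stated use of strand the reads of such pairs cannot be told apart. In whole seeds, fewer cells of a type and less RNA per cell cannot be told apart.

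Of 12697 genes tested, 1305 (10.3%) were called higher in WT NaCl and 1199 (9.44%) lower, which together made 19.7% of the genes. A call required an adjusted p under 0.05 in edgeR's quasi-likelihood test and a change of more than 1.5-fold. The median log2FC was 0.87 among the genes called higher, -0.83 among those called lower and -0.003 over all tested genes. Changes were mostly moderate, with 464 genes higher and 373 lower by more than 1 on the log2 scale and 64 and 17 by more than 2. A further 4677 genes (36.8%) were alike, which meant that the unadjusted 95% interval of the log2FC lay wholly within 1.5-fold either way. The remaining 5516 genes were neither called nor alike. They were low genes, with a median of 10.7 CPM, against 41.7 CPM for alike genes and 19.2 CPM for called genes, and their median SE of 0.23 was wide against 0.13 for alike genes. The libraries of the 2 groups did not overlap in 2103 of the 2504 called genes (84.0%), with 31.1% over all tested genes.

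The second pair of groups sorted these genes. In *dog1-3* NaCl against WT mock, 2354 genes (18.5%) were called higher and 2380 (18.7%) lower. Of the 1305 genes higher in WT NaCl, 306 were lower in *dog1-3* NaCl, so that WT was on the high side in both pairs, 326 were higher there, so that NaCl was on the high side in both, and 673 had no call. Of the 1199 genes lower in WT NaCl, 462 had *dog1-3* on the high side in both pairs, 197 had mock on the high side in both and 540 had no call in the second pair. With TMM scaling *dog1-3* on the high side was the most frequent of these 4 arrangements, but the split of the second pair depended on scaling. With library size in place of TMM, all genes together moved by -0.35 on the log2 scale in the second pair and by 0.06 in the first, 1193 genes were higher and 4522 lower in *dog1-3* NaCl, and the 4 arrangements held 527, 211, 296 and 281 genes in the order given here. None of the 123 named genes checked changed the sign of a call between these scalings. Under library size alone the second pair lost the call, and with it the arrangement given below, for *HSP17.4*, *PIP2;1*, *KUP9*, *ABCF1*, AT2G38870, AT1G04217 and *MFT*, and gained one for *FD3*, *CYP707A2*, AT1G21090 and *PCK1*.

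**Figure D1:**
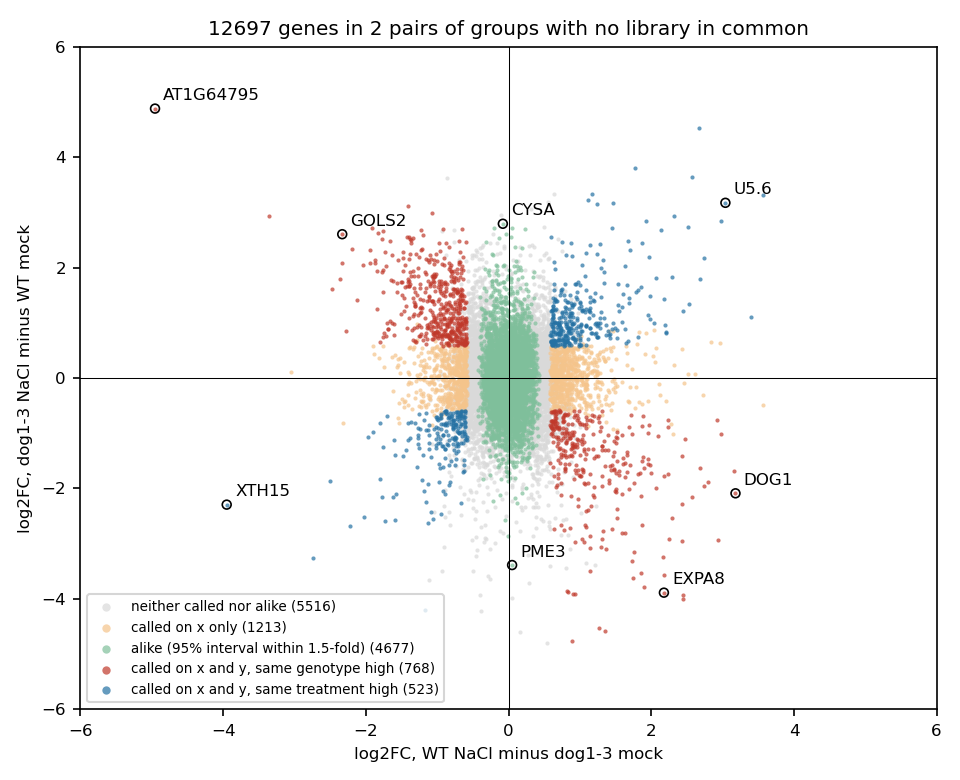
Each point is a gene, with the log2FC of WT NaCl minus *dog1-3* mock on the horizontal axis and that of *dog1-3* NaCl minus WT mock on the vertical axis, coloured by its calls. The lower right holds the 306 genes with WT on the high side in both pairs and the upper left the 462 genes with *dog1-3* on the high side, while alike genes form the vertical band at 0, which reaches far up and down.

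Several expansins, which loosen cell walls, had WT on the high side in both pairs. *EXPA8*, an expansin of growing cell walls, had 103, 124, 97.9 and 115 CPM in WT NaCl, against 36.7, 19.8, 19.5 and 22.6 CPM in *dog1-3* mock (log2FC 2.18, SE 0.16, adjusted p = 1.14e-14). *EXPA10* had 1057, 1302, 993 and 969.5 CPM in WT NaCl, against 385, 355, 357 and 299.7 CPM in *dog1-3* mock (log2FC 1.63, SE 0.09, adjusted p = 1.9e-16). Both expansins were higher in every WT NaCl library than in any *dog1-3* mock library, and both were lower in *dog1-3* NaCl than in WT mock, with log2FC -3.89 for *EXPA8* and -1.79 for *EXPA10*. *EXPA1* averaged 545 ± 85.8 CPM in WT NaCl, against 248 ± 22.1 CPM in *dog1-3* mock (log2FC 1.14, SE 0.10, adjusted p = 4.69e-12), and *EXP3* averaged 68.6 ± 4.19 CPM in WT NaCl, against 24.8 ± 2.61 CPM in *dog1-3* mock (log2FC 1.48, SE 0.15, adjusted p = 8.67e-11). Of the 9 expansins of the alpha class tested among 26 annotated, 5 were called higher and none lower, with a median log2FC of 0.93, beside 10.3% higher and 9.44% lower over all genes, and 8 were lower in the second pair, beside 18.7%. That median turned to -0.11 without a filter on low counts, when 15 were tested, and to -0.12 with DESeq2. A low gene can pass that filter through its highest group alone, so the expansin counts of both pairs may in part follow from the filter.

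*GASA6*, a small secreted peptide of the gibberellin-regulated family that promotes germination in Arabidopsis, had 345, 375, 360.4 and 436 CPM in WT NaCl, against 117, 58.2, 70.4 and 77.1 CPM in *dog1-3* mock (log2FC 2.25, SE 0.15, adjusted p = 7.14e-15). Its lowest WT NaCl library was far above its highest *dog1-3* mock library, and in the second pair it had 61.3 ± 22.9 CPM in *dog1-3* NaCl and 457 ± 80.7 CPM in WT mock. *GPT2*, a plastid glucose 6-phosphate translocator, averaged 549.6 ± 44.1 CPM in WT NaCl, against 199 ± 23.3 CPM in *dog1-3* mock (log2FC 1.47, SE 0.09, adjusted p = 8.34e-16), and the serine carboxypeptidase-like gene *scpl20* averaged 269 ± 27.4 CPM in WT NaCl, against 77.3 ± 17.9 CPM in *dog1-3* mock (log2FC 1.82, SE 0.13, adjusted p = 4.21e-14). *MT1B*, a metallothionein, averaged 101 ± 20.3 CPM in WT NaCl, against 13.6 ± 3.89 CPM in *dog1-3* mock (log2FC 2.92, SE 0.18, adjusted p = 3.79e-17). All of these were lower in *dog1-3* NaCl than in WT mock, with log2FC between -0.76 for *MT1B* and -2.93 for *GASA6*. *XTH19*, of the xyloglucan endotransglucosylases that remodel cell walls, belonged to the same arrangement, with log2FC 1.27 (adjusted p = 4.77e-07) in the first pair and -4.52 in the second. The non-coding RNA gene AT1G16635 (log2FC 3.17), the CBS domain gene AT5G53750 (2.98) and *GRP-3* (2.94), a glycine-rich protein gene, were low genes, with at most 20.0 CPM in WT NaCl and 2.29 CPM in *dog1-3* mock on average for the highest of them, AT1G16635.

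**Figure D2:**
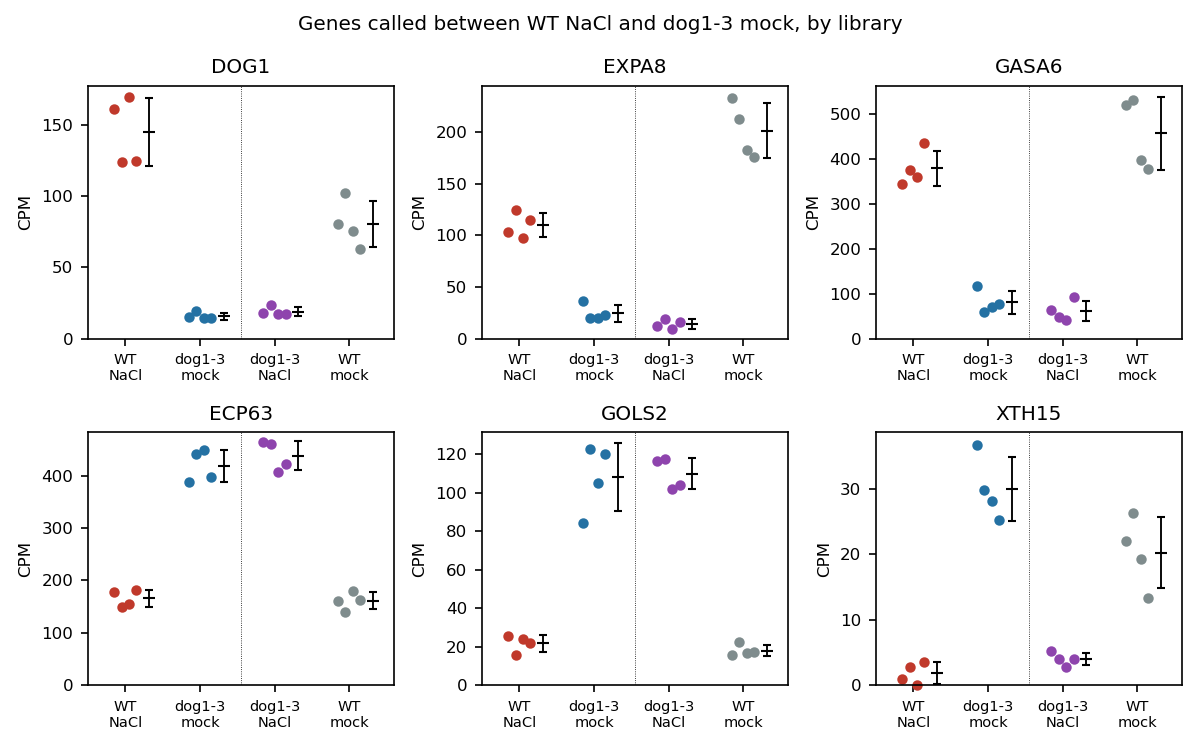
CPM by library, with bars for the mean and SD of 4 libraries, in WT NaCl, *dog1-3* mock, *dog1-3* NaCl and WT mock. *DOG1*, *EXPA8* and *GASA6* were higher in both WT groups, *ECP63* and *GOLS2* were higher in both *dog1-3* groups, and *XTH15* was higher in both mock groups.

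LEA genes and other genes of the dry seed were among those lower in WT NaCl. *ECP63*, a LEA protein gene, had 177, 149, 155 and 181 CPM in WT NaCl, against 387, 442, 448 and 398 CPM in *dog1-3* mock (log2FC -1.34, SE 0.09, adjusted p = 3.1e-15). *LEA7* had 1043, 918, 1029 and 964 CPM in WT NaCl, against 2415, 2704, 2349.8 and 2458 CPM in *dog1-3* mock (log2FC -1.33, SE 0.09, adjusted p = 5.79e-14). The groups were separate in both genes, with every *dog1-3* mock library at more than the highest WT NaCl library, and the second pair gave log2FC 1.45 for *ECP63* and 1.85 for *LEA7*. The LEA genes AT3G17520 (1597 CPM in WT NaCl and 4488 CPM in *dog1-3* mock, log2FC -1.49) and AT4G21020 (1083 CPM in WT NaCl and 2679 CPM in *dog1-3* mock, log2FC -1.31) differed likewise. Of 38 listed LEA genes, 30 were tested, of which 15 were lower, 4 higher and 9 alike, with a median log2FC of -0.62, beside 9.44% lower, 10.3% higher and 36.8% alike over all genes, and 28 of the 30 were higher in *dog1-3* NaCl than in WT mock, beside 18.5%. The alike share of the list was near that of all genes, and some of its abundant members were alike. *RAB18*, an ABA-responsive dehydrin, had 13723, 9871, 12850.5 and 7648 CPM in WT NaCl, against 8252, 10603, 9461 and 12482 CPM in *dog1-3* mock (log2FC 0.11, 95% interval -0.18 to 0.41), and *LEA4-1* averaged 1893 ± 131 CPM in WT NaCl, against 2053 ± 114 CPM in *dog1-3* mock (log2FC -0.12, 95% interval -0.28 to 0.05).

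*RD29B*, an ABA-induced gene of the dehydration response, was lower as well. It had 198, 195, 211 and 220.0 CPM in WT NaCl, against 431, 486, 538 and 462 CPM in *dog1-3* mock (log2FC -1.22, SE 0.10, adjusted p = 7.67e-13). Only 3 of 9 listed cold and dehydration marker genes were tested, and all 3 were lower, beside 9.44% of all genes. The others were *RD29A* (log2FC -0.69, adjusted p = 0.000517) and *ADH1*, an alcohol dehydrogenase (log2FC -0.77, adjusted p = 2.68e-07), and *CBF1* and *CBF3* had no count in these 8 libraries. Dehydrin genes of the LEA list, named after their values were seen, did not share that direction. *ERD14* was higher at a low level (5.90 CPM in WT NaCl and 0.922 CPM in *dog1-3* mock, log2FC 2.51, adjusted p = 0.000168), and *XERO1* (log2FC 0.11) and *XERO2* (log2FC -0.34) were alike. *GOLS2*, which makes galactinol for raffinose sugars, was lower and had 25.3, 15.5, 23.9 and 22.0 CPM in WT NaCl, against 84.1, 123, 105 and 120.2 CPM in *dog1-3* mock (log2FC -2.33, SE 0.15, adjusted p = 2.14e-16). Its *dog1-3* mock libraries were all several-fold above its WT NaCl libraries, and *GOLS1* fell in the same direction (log2FC -0.78). *COR413-PM1*, a cold-regulated membrane protein gene, averaged 17.1 ± 4.69 CPM in WT NaCl, against 85.1 ± 2.55 CPM in *dog1-3* mock (log2FC -2.33, SE 0.15, adjusted p = 5.31e-16). The genes of this paragraph called lower were, except *ADH1*, also higher in *dog1-3* NaCl than in WT mock, with log2FC of 2.61 for *GOLS2* and 2.34 for *RD29B*.

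Some storage proteins, oleosins and vacuolar aquaporins were lower in WT NaCl. *SESA2*, a 2S albumin, averaged 542 ± 175 CPM in WT NaCl, against 1689 ± 196 CPM in *dog1-3* mock (log2FC -1.64, SE 0.19, adjusted p = 9.98e-09). Of 14 storage protein genes tested, 6 were lower, none higher and 2 alike, with a median log2FC of -0.49, beside 9.44% lower and 36.8% alike over all genes, and 13 were higher in *dog1-3* NaCl than in WT mock, beside 18.5%. The 6 became 4 without WT NaCl replicate 4 or under library size alone. *CRA1*, a cruciferin, averaged 14511 ± 2714 CPM in WT NaCl, against 22049.6 ± 1484 CPM in *dog1-3* mock (log2FC -0.60, SE 0.13, adjusted p = 0.000405), just past the fold limit. It lost that call without WT NaCl replicate 2 (log2FC -0.58), WT NaCl replicate 4 (-0.51) or *dog1-3* mock replicate 4 (-0.57), and under library size alone (-0.55). *CRU3*, another cruciferin, averaged 13769 ± 2327 CPM in WT NaCl, against 17970.3 ± 1206 CPM in *dog1-3* mock and was neither called nor alike (log2FC -0.38, 95% interval -0.65 to -0.12). Of 10 oleosins and caleosins, which coat oil bodies, 5 were lower and 3 alike, with a median of -0.62, beside 9.44% lower and 36.8% alike over all genes. All 10 were higher in *dog1-3* NaCl than in WT mock, beside 18.5%. *OLEO3* was lower (73.6 CPM in WT NaCl and 177 CPM in *dog1-3* mock, log2FC -1.26), as was *OLEO2* (1729 CPM in WT NaCl and 3233 CPM in *dog1-3* mock, log2FC -0.90), while *OLEO4* was alike (log2FC -0.04, 95% interval -0.29 to 0.21). *OLEO1*, at 12616 CPM in WT NaCl and 18281 CPM in *dog1-3* mock, lay just short of the fold limit (log2FC -0.54) and was called lower without WT NaCl replicate 1 or *dog1-3* mock replicate 1. The tonoplast aquaporins of seeds were among the clearest decreases. *TIP3;1* had 1926, 1581, 1883 and 1417 CPM in WT NaCl, against 4851, 5206, 4529.5 and 4739 CPM in *dog1-3* mock (log2FC -1.51, SE 0.11, adjusted p = 7.28e-14), and *TIP3;2* averaged 1098 ± 145 CPM in WT NaCl, against 3066 ± 267 CPM in *dog1-3* mock (log2FC -1.48, SE 0.09, adjusted p = 1.36e-15). Their *dog1-3* mock libraries were all above their WT NaCl libraries. The 9 mature seed markers named above are themselves storage protein and oleosin genes, so their sums are no separate observation. Of the 9, 4 were lower and 5 neither called nor alike, beside 9.44% and 43.4% of all genes.

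Other genes with *dog1-3* on the high side were not of the dry seed lists. *NSP2*, a nitrile specifier protein of glucosinolate breakdown, had 221, 170.0, 189 and 177 CPM in WT NaCl, against 686, 761, 669.9 and 731 CPM in *dog1-3* mock (log2FC -1.91, SE 0.10, adjusted p = 1.3e-17), and the second pair gave log2FC 2.72. The lectin gene AT3G21380 averaged 33.3 ± 3.44 CPM in WT NaCl, against 151 ± 15.1 CPM in *dog1-3* mock (log2FC -2.19, SE 0.15, adjusted p = 2.82e-15). *TT7*, a flavonoid hydroxylase, averaged 6.46 ± 0.641 CPM in WT NaCl, against 33.5 ± 5.88 CPM in *dog1-3* mock (log2FC -2.36, SE 0.25, adjusted p = 3.54e-11), *CYP709B2*, a cytochrome P450, averaged 1.01 ± 0.401 CPM in WT NaCl, against 10.6 ± 1.41 CPM in *dog1-3* mock (log2FC -3.35, SE 0.50, adjusted p = 3.36e-09), and the uncharacterized AT5G55620 averaged 0.978 CPM in WT NaCl and 5.76 CPM in *dog1-3* mock (log2FC -2.47). The cell wall genes *XTH25* (log2FC -1.41, SE 0.13, adjusted p = 1.54e-11) and *XTH11* (log2FC -1.32, SE 0.13, adjusted p = 1.65e-10) were lower too. The largest decrease of all was in the uncharacterized gene AT1G64795, with 5.34, 10.4, 7.97 and 3.50 CPM in WT NaCl, against 226, 232, 175 and 215 CPM in *dog1-3* mock (log2FC -4.96, SE 0.25, adjusted p = 8.57e-23). It was low in both WT groups, with 335 ± 33.7 CPM in *dog1-3* NaCl and 10.9 ± 4.02 CPM in WT mock in the second pair. It overlaps AT1G64790 on the opposite strand, and without strand in the counting reads of the 2 cannot be told apart.

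Genes with NaCl on the high side included dormancy and stress genes beside small RNAs. *RDO5*, a phosphatase-like regulator of dormancy, had 2767, 2539, 2839.8 and 2809 CPM in WT NaCl, against 1381, 1588, 1493 and 1527 CPM in *dog1-3* mock (log2FC 0.87, SE 0.08, adjusted p = 9.41e-11). Each WT NaCl library was above each *dog1-3* mock library, and the second pair differed by a like amount (log2FC 1.04). *HSP17.4*, a small heat shock protein of seeds, averaged 1439.6 ± 145 CPM in WT NaCl, against 804 ± 59.4 CPM in *dog1-3* mock (log2FC 0.84, SE 0.09, adjusted p = 2.22e-09), and *HSP17.6A* averaged 130.4 ± 25.5 CPM in WT NaCl, against 74.9 ± 12.4 CPM in *dog1-3* mock (log2FC 0.81, SE 0.15, adjusted p = 2.93e-05). Of 16 listed heat shock genes only 5 were tested, with 3 higher and 1 lower, beside 10.3% and 9.44% of all genes. The 3 became 2 without WT NaCl replicate 1, 3 or 4 or *dog1-3* mock replicate 3 or 4, and the 1 lower became 0 without WT NaCl replicate 2 or *dog1-3* mock replicate 3 or 4 and under library size alone. *PIP2;1*, a plasma membrane aquaporin, averaged 39.6 ± 8.09 CPM in WT NaCl, against 8.68 ± 1.20 CPM in *dog1-3* mock (log2FC 2.21, SE 0.24, adjusted p = 2.03e-10). *KUP9*, a potassium transporter, averaged 326 ± 31.2 CPM in WT NaCl, against 139.7 ± 7.64 CPM in *dog1-3* mock (log2FC 1.22, SE 0.08, adjusted p = 3.75e-15), and *ABCF1*, of the ABC protein family, averaged 249 ± 32.3 CPM in WT NaCl, against 94.0 ± 4.26 CPM in *dog1-3* mock (log2FC 1.41, SE 0.09, adjusted p = 2.82e-15). The protease inhibitor gene AT2G38870 averaged 186 CPM in WT NaCl and 59.1 CPM in *dog1-3* mock (log2FC 1.65). The uncharacterized AT5G49640 had 148, 198, 166 and 143 CPM in WT NaCl, against 42.6, 16.4, 21.8 and 24.1 CPM in *dog1-3* mock (log2FC 2.68, SE 0.22, adjusted p = 1.4e-13), and reached log2FC 4.52 in the second pair, where it had 202 ± 23.4 CPM in *dog1-3* NaCl and 8.21 ± 5.95 CPM in WT mock. It overlaps AT5G49645 on the opposite strand.

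Genes with mock on the high side were fewer. *XTH15*, a xyloglucan endotransglucosylase, had 0.971, 2.83, 0 and 3.50 CPM in WT NaCl, against 36.7, 29.8, 28.1 and 25.2 CPM in *dog1-3* mock (log2FC -3.95, SE 0.46, adjusted p = 1.41e-12), with 0 counts in 1 WT NaCl library. *G-TMT*, which completes tocopherol synthesis, averaged 6.34 ± 2.84 CPM in WT NaCl, against 35.3 ± 7.28 CPM in *dog1-3* mock (log2FC -2.50, SE 0.43, adjusted p = 1.21e-06). *FBA2*, a plastid aldolase of the Calvin cycle, averaged 9.94 ± 1.35 CPM in WT NaCl, against 32.8 ± 4.10 CPM in *dog1-3* mock (log2FC -1.70, SE 0.18, adjusted p = 3.11e-10), *FAD6*, a plastid fatty acid desaturase, averaged 73.3 ± 11.3 CPM in WT NaCl, against 136 ± 8.40 CPM in *dog1-3* mock (log2FC -0.89, SE 0.10, adjusted p = 3.44e-09), and *CPD*, a brassinosteroid synthesis P450, averaged 18.5 ± 1.43 CPM in WT NaCl, against 43.8 ± 5.40 CPM in *dog1-3* mock (log2FC -1.24, SE 0.13, adjusted p = 8.76e-10). The pseudogene AT2G06950 averaged 35.1 CPM in WT NaCl and 109 CPM in *dog1-3* mock (log2FC -1.62) and the lipase-like AT5G14450 90.2 CPM in WT NaCl and 216 CPM in *dog1-3* mock (log2FC -1.26). The second pair gave negative log2FC for each of them, between -0.59 for *FAD6* and -2.29 for *XTH15*, and that of *FAD6* lay at the fold limit. Of the 7 xyloglucan endotransglucosylases tested of 30 listed, 1 was higher and 4 lower, split between these arrangements, beside 10.3% and 9.44% of all genes.

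Many called genes had no call in the second pair. *NRT1.8*, a nitrate transporter of the xylem, had 57.3, 67.3, 67.2 and 54.0 CPM in WT NaCl, against 11.2, 11.9, 11.5 and 10.5 CPM in *dog1-3* mock (log2FC 2.43, SE 0.16, adjusted p = 4.86e-16), and the second pair gave log2FC 0.53, which was called higher (0.67) without *dog1-3* NaCl replicate 1. *NRT1.7*, a phloem nitrate transporter, had 511, 345, 397 and 482 CPM in WT NaCl, against 175, 176, 191 and 190.0 CPM in *dog1-3* mock (log2FC 1.25, SE 0.10, adjusted p = 3.13e-13). *NRT2.7*, which loads nitrate into seed vacuoles, averaged 338 ± 28.7 CPM in WT NaCl, against 163 ± 23.1 CPM in *dog1-3* mock (log2FC 1.05, SE 0.10, adjusted p = 5.23e-11). All 3 were higher in every WT NaCl library than in any *dog1-3* mock library. *NIR1*, nitrite reductase, was also higher (log2FC 1.09, adjusted p = 1.08e-10) but lower in *dog1-3* NaCl than in WT mock (log2FC -0.90), and *NIA1*, a nitrate reductase, was alike (419 CPM in WT NaCl and 504 CPM in *dog1-3* mock, 95% interval -0.48 to -0.05). A list of 21 nitrate genes, drawn up after these values were seen, had 11 tested, 6 higher, 1 lower and 2 alike, beside 10.3%, 9.44% and 36.8% of all genes. Its median log2FC was 1.05, and it has no test of its own.

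Other genes called in the first pair and not in the second were as follows. *LCR67*, a defensin-like gene, was among the most abundant transcripts, with 49815, 47574, 51959 and 42979 CPM in WT NaCl, against 28596, 29472, 25570.5 and 24905 CPM in *dog1-3* mock (log2FC 0.83, SE 0.10, adjusted p = 2.22e-08). *FD3*, a ferredoxin of non-green tissue, averaged 542 ± 59.8 CPM in WT NaCl, against 209.8 ± 12.7 CPM in *dog1-3* mock (log2FC 1.37, SE 0.08, adjusted p = 1.16e-15), and *GRXS13*, a glutaredoxin, averaged 35.8 ± 4.02 CPM in WT NaCl, against 6.62 ± 2.07 CPM in *dog1-3* mock (log2FC 2.46, SE 0.21, adjusted p = 2.72e-13). *RS2*, annotated also as *SEED IMBIBITION 2*, averaged 237 ± 26.8 CPM in WT NaCl, against 97.5 ± 15.4 CPM in *dog1-3* mock (log2FC 1.29, SE 0.10, adjusted p = 9.78e-13). The groups did not overlap in any of these genes. On the low side, the zinc finger gene AT5G44260 had 137, 122, 138 and 117 CPM in WT NaCl, against 350.4, 378, 366 and 379 CPM in *dog1-3* mock (log2FC -1.52, SE 0.08, adjusted p = 6.91e-18), *CWLP*, a cell wall linker protein gene, averaged 837 ± 94.1 CPM in WT NaCl, against 1773 ± 105 CPM in *dog1-3* mock (log2FC -1.08, SE 0.09, adjusted p = 9.78e-13), and AT2G47780, of the rubber elongation factor family, averaged 122 ± 7.75 CPM in WT NaCl, against 265 ± 17.9 CPM in *dog1-3* mock (log2FC -1.12, SE 0.10, adjusted p = 9.02e-12). *EPR1*, an extensin-like gene of the endosperm, averaged 20036 ± 3168 CPM in WT NaCl, against 30105 ± 3742 CPM in *dog1-3* mock (log2FC -0.59, SE 0.12, adjusted p = 0.000107). Its change sat at the fold limit, and the call was lost when WT NaCl replicate 1, 3 or 4 or *dog1-3* mock replicate 2 or 4 was left out, with log2FC of -0.58, -0.51, -0.58, -0.52 and -0.56, and also under library size alone (-0.53) and in a fit of only the 8 libraries (-0.58). The low genes that completed the largest changes were AT1G73550, a lipid-transfer family gene (7.86 CPM in WT NaCl and 0.592 CPM in *dog1-3* mock), the snoRNA gene AT2G35382 (13.8 CPM in WT NaCl and 1.59 CPM in *dog1-3* mock), *FHL*, which acts in phytochrome A signalling (0.871 CPM in WT NaCl and 7.62 CPM in *dog1-3* mock), and the cupredoxin gene AT1G21090 (0.988 CPM in WT NaCl and 5.19 CPM in *dog1-3* mock).

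The small nucleolar and small nuclear RNA genes that were tested were nearly all higher in WT NaCl. They guide RNA modification and splicing, and since their mature forms mostly lack a poly(A) tail, few of their molecules are caught by oligo(dT) priming. *U5.6* had 28.7, 47.1, 50.7 and 40.0 CPM in WT NaCl, against 5.33, 5.60, 5.73 and 3.15 CPM in *dog1-3* mock (log2FC 3.04, SE 0.28, adjusted p = 1.78e-13), *U6.5* averaged 65.9 ± 8.69 CPM in WT NaCl, against 16.9 ± 1.35 CPM in *dog1-3* mock (log2FC 1.96, SE 0.15, adjusted p = 3.1e-14), and the snoRNA gene AT5G07105 had 124, 126, 117 and 105 CPM in WT NaCl, against 26.6, 22.0, 26.3 and 20.5 CPM in *dog1-3* mock (log2FC 2.31, SE 0.13, adjusted p = 8.91e-18). None of these overlapped between the groups. Copies of U5 and U6 share sequence, so the split of reads between them is uncertain. The lists were drawn up after these values were seen and have no test of their own. Of 287 annotated snoRNA genes 75 passed the filter on low counts, of which 67 were higher, none lower and 2 alike, with a median log2FC of 1.49. Of 82 snRNA genes 17 passed, of which 15 were higher and none lower, with a median of 1.78, beside 10.3% higher and 9.44% lower over all genes. A low gene can pass that filter through its highest group alone, so these counts may in part follow from the filter. The sums given below took all annotated genes of each kind and did not use it. In the second pair 22 of the 75 snoRNA genes were higher and 20 lower, and 11 of the 17 snRNA genes were higher, beside 18.5% higher and 18.7% lower over all genes. Summed snoRNA counts took 0.181%, 0.200%, 0.207% and 0.198% of all counts in WT NaCl, against 0.0899%, 0.0883%, 0.0862% and 0.0794% in *dog1-3* mock. The sums were thus low in both groups and separate, whereas *dog1-3* NaCl and WT mock both averaged 0.127%. The snRNA share averaged 0.0258% ± 0.00387 in WT NaCl and 0.00759% ± 0.00123 in *dog1-3* mock (SD, n = 4 each). The low genes AT1G04217 (log2FC 3.39) and AT3G21805 (2.97), both snoRNA genes, were among the largest increases. AT3G08520, a ribosomal protein L41 gene with near-identical copies, averaged 414 ± 18.2 CPM in WT NaCl, against 159.9 ± 13.3 CPM in *dog1-3* mock (log2FC 1.37, SE 0.08, adjusted p = 2.14e-16).

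**Figure D3:**
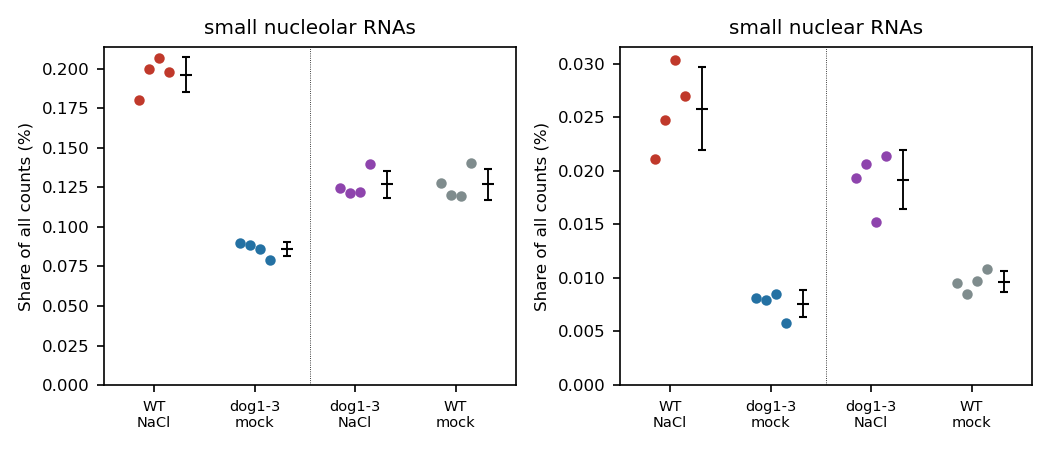
Share of all counts (%) taken by small nucleolar RNA genes (left) and small nuclear RNA genes (right) in each library, with bars for the mean and SD of 4 libraries. WT NaCl has the highest snoRNA shares, from 0.181% to 0.207%, and *dog1-3* mock the lowest, from 0.0794% to 0.0899%, with *dog1-3* NaCl and WT mock between them.

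Some alike genes differed widely in the second pair, though calls there were less frequent among them than over all genes. Of the 4677, 678 (14.5%) were higher and 741 (15.8%) lower in *dog1-3* NaCl than in WT mock, beside 18.5% and 18.7% of all genes. No call was made there for 3258, and 2043 were alike in both pairs. The genes named here had the largest of these differences in each direction. *PME3*, a pectin methylesterase, had 27.7, 41.9, 31.9 and 38.5 CPM in WT NaCl, against 38.3, 24.6, 36.6 and 38.8 CPM in *dog1-3* mock (log2FC 0.05, 95% interval -0.25 to 0.35). The libraries of the 2 groups were interleaved, although the second pair had 9.38, 9.39, 10.5 and 10.2 CPM in *dog1-3* NaCl, against 116, 113, 91.8 and 95.8 CPM in WT mock (log2FC -3.39, adjusted p = 4.08e-20). *CYSA*, a cystatin that inhibits cysteine proteases, had 18.5, 14.1, 21.1 and 14.0 CPM in WT NaCl, against 23.4, 19.4, 14.3 and 13.1 CPM in *dog1-3* mock (log2FC -0.08, 95% interval -0.48 to 0.32), and 40.6 ± 8.15 CPM in *dog1-3* NaCl and 5.82 ± 1.05 CPM in WT mock in the second pair. *AtMT4a*, a metallothionein of seeds, averaged 249 ± 39.1 CPM in WT NaCl, against 211 ± 26.6 CPM in *dog1-3* mock (95% interval 0.01 to 0.46), and 596 ± 87.9 CPM in *dog1-3* NaCl and 91.8 ± 15.2 CPM in WT mock in the second pair. The same held for *EXL3*, of the EXORDIUM-like genes (64.1 CPM in WT NaCl and 67.2 CPM in *dog1-3* mock, second pair log2FC -2.58), for *Cpn60beta2*, a plastid chaperonin (37.0 CPM in WT NaCl and 35.5 CPM in *dog1-3* mock, second pair -2.17), for *PMT6*, a polyol and monosaccharide transporter (22.9 CPM in WT NaCl and 23.7 CPM in *dog1-3* mock, second pair 2.61), and for the zinc finger gene *ATCTH* (13.7 CPM in WT NaCl and 13.5 CPM in *dog1-3* mock, second pair 2.71). Among genes of unknown or broad family, AT2G38905, of a low-temperature and salt responsive family, and AT1G67920 were higher in the second pair (2.72 and 2.57), and AT3G44430, AT1G28660 and AT4G30800 lower (-2.23, -2.87 and -2.27). The interval of *CYSA*, *ATCTH*, AT1G28660 or AT4G30800 passed the 1.5-fold limit when 1 of certain libraries was left out, among them WT NaCl replicate 3 for *CYSA* and *ATCTH* and *dog1-3* mock replicate 3 for AT1G28660 and AT4G30800.

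**Figure D4:**
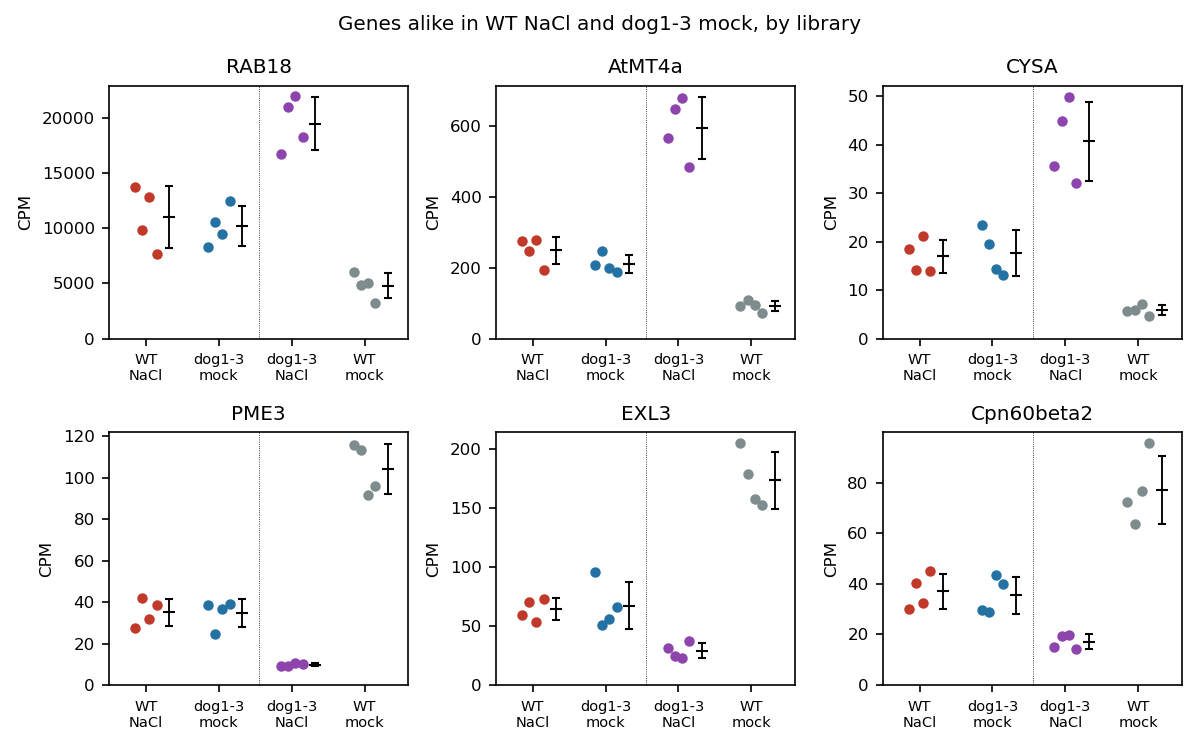
CPM by library of 6 genes alike in WT NaCl and *dog1-3* mock, with bars for the mean and SD of 4 libraries. The points of these 2 groups overlap in each panel, while *dog1-3* NaCl and WT mock lie apart, above and below for *RAB18*, *AtMT4a* and *CYSA* and below and above for *PME3*, *EXL3* and *Cpn60beta2*.

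Genes of oil breakdown were largely alike within the 1.5-fold limit, with most of them moderately higher in WT NaCl. Of 12 genes of oil breakdown and beta-oxidation, 10 were alike and 2 higher (1 higher without WT NaCl replicate 1), with a median log2FC of 0.26, against 36.8% alike over all genes. By an adjusted p under 0.05 alone, 8 of the 12 were higher and 0 lower, beside 2228 higher and 2235 lower of the 12697 genes tested. The listed genes summed to 4147 to 4476 CPM in WT NaCl and 3343 to 3660 CPM in *dog1-3* mock. *KAT2*, a peroxisomal thiolase, averaged 2103 ± 109 CPM in WT NaCl, against 1785 ± 77.2 CPM in *dog1-3* mock (95% interval 0.08 to 0.40), and *ACX2*, an acyl-CoA oxidase, was higher (369 CPM in WT NaCl and 208 CPM in *dog1-3* mock, log2FC 0.82, SE 0.08, adjusted p = 4.74e-11). *MFP2*, the multifunctional protein of beta-oxidation, was alike with an interval close to the limit (0.25 to 0.57), and passed it without WT NaCl replicate 2 or 3 or *dog1-3* mock replicate 4. Of 8 genes of the glyoxylate cycle and gluconeogenesis 5 were alike, beside 36.8% of all genes, and by adjusted p alone 4 were higher and 0 lower. Among the alike genes were *MLS*, malate synthase (4203 CPM in WT NaCl and 3564 CPM in *dog1-3* mock), and *PCK1*, which commits carbon to sugar synthesis (2973 CPM in WT NaCl and 2284 CPM in *dog1-3* mock). *PCK1* passed the limit without WT NaCl replicate 3. *ICL*, isocitrate lyase, had 7671 CPM in WT NaCl and 5284 CPM in *dog1-3* mock (log2FC 0.54, 95% interval 0.35 to 0.73) and was neither called nor alike, and it was called higher without WT NaCl replicate 2 or *dog1-3* mock replicate 4. *ACO3*, an aconitase, was the only member called (log2FC 0.66, adjusted p = 5.35e-09). Of 280 ribosomal protein genes 187 were alike, 16 higher and 8 lower, with a median of 0.08, beside 36.8%, 10.3% and 9.44% of all genes. In the second pair 90 of them were lower in *dog1-3* NaCl than in WT mock, beside 18.7%. The alike shares of the lists in this paragraph were not set against genes of like abundance. Over all genes, alike genes had a median of 41.7 CPM, against 10.7 CPM for genes neither called nor alike.

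The dormancy regulators other than *DOG1* and *RDO5* were mixed. *MFT*, a PEBP-family regulator of ABA response in seeds, had 131, 109, 129.8 and 103 CPM in WT NaCl, against 283, 276, 216 and 256 CPM in *dog1-3* mock (log2FC -1.13, SE 0.09, adjusted p = 2.33e-12), and *PER1*, a seed peroxiredoxin, averaged 1311 ± 272 CPM in WT NaCl, against 2834 ± 253 CPM in *dog1-3* mock (log2FC -1.11, SE 0.12, adjusted p = 1.04e-09). Both were lower in every WT NaCl library. *ABI3*, the master transcription factor of seed maturation, was alike (509 CPM in WT NaCl and 447 CPM in *dog1-3* mock, 95% interval 0.03 to 0.34), as was *SOM*, a zinc finger repressor of light-dependent germination (1048 CPM in WT NaCl and 1035 CPM in *dog1-3* mock, 95% interval -0.14 to 0.18). Of 13 tested regulators 3 were higher, 2 lower and 6 alike, beside 10.3% higher, 9.44% lower and 36.8% alike over all genes, and *LEC1* and *LEC2* had no count.

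Genes of ABA receptors, phosphatases and kinases were called in either direction. The receptor gene *PYR1* averaged 54.1 ± 2.15 CPM in WT NaCl, against 28.4 ± 2.43 CPM in *dog1-3* mock (log2FC 0.92, SE 0.12, adjusted p = 5.14e-08), whereas the receptor gene *PYL13* averaged 16.9 ± 2.79 CPM in WT NaCl, against 39.7 ± 4.52 CPM in *dog1-3* mock (log2FC -1.23, SE 0.16, adjusted p = 5.41e-08). The PP2C phosphatase genes *AHG1* (22.8 CPM in WT NaCl and 53.5 CPM in *dog1-3* mock, log2FC -1.24, adjusted p = 2.51e-09) and *HAI3* (33.7 CPM in WT NaCl and 70.0 CPM in *dog1-3* mock, log2FC -1.07, adjusted p = 4.78e-09) were lower. *SNRK2.2*, a kinase activated by ABA, was alike (139 ± 6.70 CPM in WT NaCl, against 143 ± 9.98 CPM in *dog1-3* mock, 95% interval -0.21 to 0.13). Of 20 tested genes 6 were higher, 4 lower and 4 alike, beside 10.3%, 9.44% and 36.8% of all genes, with a median log2FC of -0.06 that turned to 0.01 without WT NaCl replicate 4. Of the 8 bZIP and AP2 factors tested, *EEL* was lower (8.07 CPM in WT NaCl and 15.2 CPM in *dog1-3* mock, log2FC -0.90) and *ABI4* higher (49.5 CPM in WT NaCl and 32.3 CPM in *dog1-3* mock, log2FC 0.62). The call of *ABI4* was lost without WT NaCl replicate 2 (0.58) or *dog1-3* mock replicate 4 (0.55). *ABI5* lay within the 1.5-fold limit (259 ± 6.28 CPM in WT NaCl, against 329.9 ± 18.7 CPM in *dog1-3* mock, 95% interval -0.51 to -0.20), although its libraries did not overlap, and was higher in *dog1-3* NaCl than in WT mock (log2FC 1.01).

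In ABA metabolism, *CYP707A2*, which breaks ABA down in imbibed seeds, had 33.5, 30.1, 38.7 and 22.0 CPM in WT NaCl, against 7.46, 16.4, 12.6 and 13.6 CPM in *dog1-3* mock (log2FC 1.26, SE 0.20, adjusted p = 2.04e-06). *ABA4*, of carotenoid conversion ahead of ABA, averaged 66.5 ± 4.20 CPM in WT NaCl, against 38.7 ± 5.26 CPM in *dog1-3* mock (log2FC 0.78, SE 0.12, adjusted p = 1.69e-06). The genes of 9-cis-epoxycarotenoid dioxygenases, the key step of ABA synthesis, were lower, with 10.4 CPM in WT NaCl and 19.6 CPM in *dog1-3* mock for *NCED6* (log2FC -0.89, adjusted p = 0.000967) and 14.8 CPM in WT NaCl and 25.0 CPM in *dog1-3* mock for *NCED9* (log2FC -0.74, adjusted p = 0.00168). The breakdown gene *CYP707A2* was thus higher in WT NaCl than in *dog1-3* mock, while genes on the way to ABA went both ways, with *ABA4* higher and *NCED6* and *NCED9* lower. Of 8 genes tested these 4 were called and 4 were neither called nor alike, beside 19.7% called either way over all genes.

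Gibberellin genes were mixed. *GA20OX2*, a synthesis enzyme, had 362, 363, 461 and 422 CPM in WT NaCl, against 203, 194, 246 and 250.3 CPM in *dog1-3* mock (log2FC 0.85, SE 0.11, adjusted p = 1.84e-07) and was lower in *dog1-3* NaCl than in WT mock (log2FC -0.99). *GA20OX3*, an enzyme of the same step, was alike (1066 CPM in WT NaCl and 891 CPM in *dog1-3* mock, 95% interval 0.06 to 0.46), as was *KO*, an early synthesis enzyme (262 CPM in WT NaCl and 296 CPM in *dog1-3* mock, 95% interval -0.33 to -0.03). *RGA*, a DELLA repressor of gibberellin response, averaged 45.1 ± 2.23 CPM in WT NaCl, against 20.4 ± 3.42 CPM in *dog1-3* mock (log2FC 1.14, SE 0.14, adjusted p = 1.81e-08). Of 15 tested genes 2 were higher, 2 lower and 4 alike, beside 10.3%, 9.44% and 36.8% of all genes. The 2 lower calls became 0 without *dog1-3* mock replicate 3 or under library size alone, and 1 without WT NaCl replicate 1, 2 or 3 or *dog1-3* mock replicate 2 or 4. In DNA replication licensing 2 of 11 tested genes were lower and 1 alike, beside 9.44% and 36.8% of all genes, with a median of -0.82. Those 2 calls became 0 without WT NaCl replicate 1 or 2 or *dog1-3* mock replicate 2 and with DESeq2, and 1 without WT NaCl replicate 3 or *dog1-3* mock replicate 3 or 4 and under library size alone. The median was -0.53 without WT NaCl replicate 2 and -0.55 without WT NaCl replicate 3. In the second pair 10 of the 11 were lower in *dog1-3* NaCl than in WT mock, beside 18.7% of all genes. A low gene can pass the filter through its highest group alone, so that count may in part follow from the filter. In a fit of only the 8 libraries 3 genes of this list passed the filter, with 0 lower and a median of -0.34.

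Of 8 sodium transport genes tested 3 were higher and 2 lower, beside 10.3% and 9.44% of all genes, and 2 were alike. *AVP1*, the vacuolar proton pump that drives sodium into the vacuole, had 769.9, 747, 723 and 725 CPM in WT NaCl, against 389, 381, 401 and 406 CPM in *dog1-3* mock (log2FC 0.91, SE 0.08, adjusted p = 2.4e-12), all WT NaCl libraries being higher. *NHX3*, a sodium/proton exchanger, was lower (27.1 CPM in WT NaCl and 60.2 CPM in *dog1-3* mock, log2FC -1.16, SE 0.14, adjusted p = 1.5e-08), and *SOS3*, a calcium sensor of salt tolerance, was lower at a low level (5.56 CPM in WT NaCl and 11.3 CPM in *dog1-3* mock, log2FC -1.04, SE 0.27, adjusted p = 0.0019). *NHX1*, a vacuolar exchanger, was called higher (21.4 CPM in WT NaCl and 12.2 CPM in *dog1-3* mock, log2FC 0.81, SE 0.20, adjusted p = 0.00135) although its libraries overlapped. *HKT1* had no count. The median log2FC of the list was 0.10 and turned to -0.01 without WT NaCl replicate 2. Of 10 aquaporins 2 were higher and 7 lower, beside 10.3% and 9.44% of all genes, with a median of -0.65. The 7 became 4 without WT NaCl replicate 2 and 5 under library size alone. Of 9 raffinose and proline genes 1 was higher, 2 lower and 4 alike, beside 10.3%, 9.44% and 36.8% of all genes. Of 6 beta-tubulin genes 1 was higher, 2 lower (1 without WT NaCl replicate 2 or 3 or *dog1-3* mock replicate 1 or 2, or with DESeq2) and 3 alike. The shares over all genes were 10.3%, 9.44% and 36.8%. None of 15 nuclear photosystem genes was called, beside 19.7% called over all genes, and the 1 green tissue marker tested, of 4, was alike.

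**Figure D5:**
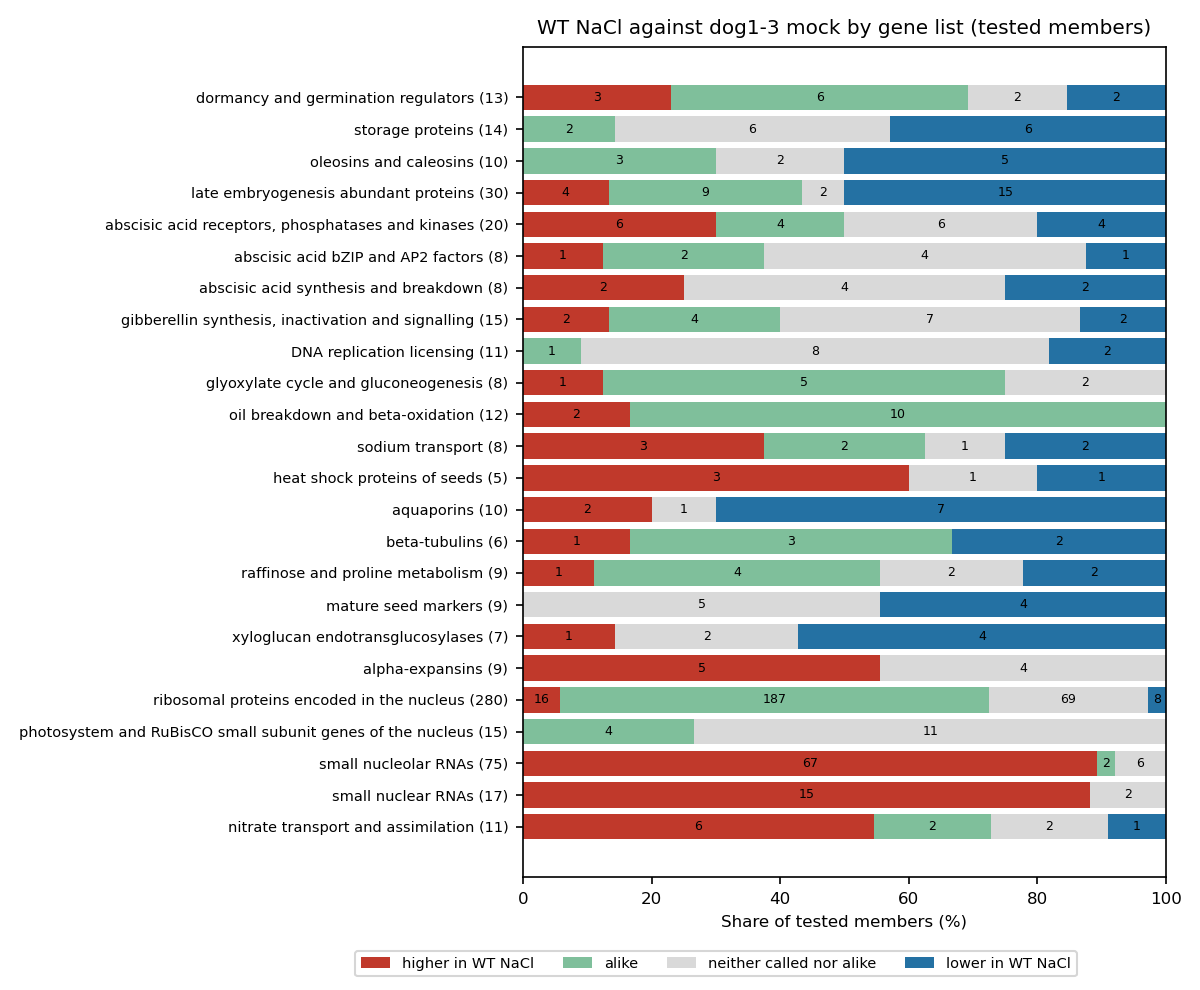
Share of the tested genes of each list that were higher in WT NaCl, alike, neither, or lower in WT NaCl, as stacked bars with the number of genes in each part and the number tested in brackets. The lists of small RNAs are nearly all on the higher side, LEA genes have 15 of 30 on the lower side, and beta-oxidation and ribosomal protein genes are mostly alike.

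The ACGTG motif of the promoters was unevenly spread over these classes. It occurred before 21.7% of the 1176 genes called higher, 35.2% of the 1157 called lower and 22.5% of the 4634 alike genes that had a promoter, against 23.9% over all tested genes. Among the genes lower in WT NaCl it was before 51.1% of the 452 with *dog1-3* on the high side in both pairs, 22.5% of those with mock on the high side and 25.9% of those with no call in the second pair. Windows with 2 or more matches made up 34.3% of the first of these classes, against 10.8% over all tested genes. A single CACGTG site counts as 2 matches here. Of the 30 tested LEA genes 26 had the motif (86.7%), and 1 of the 9 expansins did. Alike genes that were higher in *dog1-3* NaCl than in WT mock held it in 29.9%, and those that were lower there in 19.8%. These shares describe letters in a window, were not tested, and say nothing of binding.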

How the data were processed

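Samples were grouped and numbered by their labels. The authors primed total RNA with barcoded oligo(dT), pooled mock and NaCl reactions separately, and deposited unnormalized read counts for 37336 loci per library. The submitters' processing notes name STAR 2.7.8a, DESeq2 and TAIR10 without roles. The counter, its use of strand, the annotation release and the handling of molecular identifiers are not given in the sources used here. Names and promoters came from the RefSeq annotation of TAIR10.1, matched by locus for 37051 loci, and coordinates belong to that assembly.

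The deposited counts were analysed with edgeR 4.0.16 in R 4.3.3 (TMM scaling, filterByExpr by group with a minimum count of 10, quasi-likelihood F test with Benjamini-Hochberg adjustment), in 1 model of all 16 libraries with a mean for each of the 4 groups. Log2FC is WT NaCl minus *dog1-3* mock, and for the second pair *dog1-3* NaCl minus WT mock. The pairs shared no library, but the filter, the TMM scaling and the fitted spread were common to both. Intervals are 95%. In simulated counts of 12486 tested genes, with 200 changed by 1 on the log2 scale, 160 of these were called, with 3 false calls among the 12286 unchanged genes. No changed gene came out alike, and 65.3% of unchanged genes did. The simulated spread followed the fitted trend alone, and far fewer genes changed than the 19.7% called in the data, so these rates may not carry over. Replicates differed beyond sampling noise in each group (chi-square per degree of freedom 1.70 to 2.94 in WT NaCl and *dog1-3* mock, 1.51 to 2.45 in *dog1-3* NaCl and 2.06 to 6.16 in WT mock).

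Named genes were *DOG1*, the 10 largest increases and 10 largest decreases among called genes with separate groups (mean raw count 10 or more on the high side), the 6 largest differences of the second pair in each direction among alike genes, up to 4 genes of smallest p and 2 alike genes of highest mean per list, and the 5 highest genes. The genes of smallest p in each arrangement of the pairs were added after values were seen, as were the lists of snoRNA, snRNA and nitrate genes. The comparison and the other lists were chosen with earlier results of these data known. Alternatives covered scaling, filters, libraries in the fit, the replicate block, DESeq2 1.42.0, thresholds, and each library of the first pair left out in turn, with those of the second pair added after values were seen.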

Additional observations from a re-analysis of the deposited data

Results flagged for a closer look

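In 17 of the 246 groups of 4 libraries examined, 1 library of a named gene stood apart from the other 3 by Dixon's criterion, 6.91% against the about 1 in 20 that chance gives. *ERD14*, *XERO1* and *XERO2* were not among the genes examined. In WT NaCl, replicate 2 had 210.0 CPM of *NIR1* (others 180 to 185), 102 CPM of AT5G14450 (others 85.0 to 87.0) and 92.3 CPM of *HSP17.6A* (others 142 to 145). WT NaCl replicate 3 had 9.68 CPM of *ATCTH* (others 14.6 to 15.5) and 21.1 CPM of *PYL13* (lowest of the others 15.1), and WT NaCl replicate 1 had 209 CPM of AT2G38870 (others 176 to 181) and 17205 CPM of *CRU3* (others 12046 to 12928). In *dog1-3* mock, replicate 1 had 281 CPM of *EXPA1* (others 235 to 242), 18.6 CPM of *EEL* (others 13.7 to 14.2) and 101 CPM of AT3G44430 (others 78.7 to 81.9). *dog1-3* mock replicate 2 had 164 CPM of *GPT2* (others 208 to 213), 24.6 CPM of *PME3* (others 36.6 to 38.8) and 19.0 CPM of *DOG1* (others 14.2 to 14.9), and replicate 3 had 4.01 CPM of AT5G55620 (others 6.30 to 6.39). *dog1-3* mock replicate 4 had 3.15 CPM of *U5.6* (others 5.33 to 5.73), 758 CPM of *MFP2* (others 634 to 645) and 16.8 CPM of *NHX1* (others 10.3 to 11.2).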

How the results depend on the processing

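Scaling by library size alone gave 1537 genes higher, 990 lower and 4608 alike, and left 527 genes with WT, 211 with NaCl and 296 with *dog1-3* on the high side in both pairs, with 287 alike genes higher and 1575 lower in *dog1-3* NaCl than in WT mock. Size factors of the DESeq2 type gave 1308 higher and 1195 lower. A stricter 99% interval left 466 alike genes that were lower in *dog1-3* NaCl. Testing against the 1.5-fold limit with glmTreat called 375 genes higher and 320 lower, with 100, 76, 171 and 27 genes with WT, NaCl, *dog1-3* and mock on the high side in both pairs, 373 alike genes higher and 378 lower in *dog1-3* NaCl, and the motif before 43.6% of the genes called lower. An adjusted p alone called 2228 higher and 2235 lower, with 647, 808, 954 and 574 genes in the same 4 arrangements, 1343 alike genes higher and 1440 lower in *dog1-3* NaCl, and the motif before 30.8% of the genes called lower and 41.4% of those with *dog1-3* on the high side. These thresholds count fewer or more genes by construction. DESeq2 called 1164 higher, 1090 lower and 3889 alike.

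With 1 of the 8 libraries of the first pair left out, 1220 to 1309 genes were higher, 1101 to 1210 lower and 4115 to 4295 alike, with 278 to 326, 297 to 345, 426 to 490 and 167 to 205 genes with WT, NaCl, *dog1-3* and mock on the high side in both pairs. The alike genes that were higher in *dog1-3* NaCl numbered 603 to 637 and those lower 636 to 682, the log2FC of *DOG1* was 3.10 to 3.32, and the motif was before 20.9% to 22.5% of genes called higher, 33.5% to 36.1% of those called lower, 21.9% to 22.8% of alike genes and 48.6% to 52.6% of those lower with *dog1-3* on the high side. Leaving out 1 of the 8 libraries of *dog1-3* NaCl and WT mock, chosen after seeing the data, gave 1295 to 1334 genes higher, 1202 to 1221 lower and 4657 to 4735 alike, and 292 to 313, 326 to 339, 450 to 470 and 183 to 199 genes in the 4 arrangements, with 654 to 709 alike genes higher and 684 to 753 lower in *dog1-3* NaCl. Named genes that lost a call of the second pair in any of these fits were AT1G04217, AT5G53750, *FAD6*, *FBA2*, AT2G38870 and *HSP17.4*, and *NRT1.8*, *SOM*, *ABI3*, *EPR1*, *AVP1* and AT1G21090 gained one.

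Replicate numbers were shared between groups, but the deviations of same-numbered libraries correlated by only -0.05, 0.004, 0.04 and 0.02, so the numbers were not taken to pair the samples. With the replicate block 1317 genes were higher, 1208 lower and 4716 alike. In the fit of only the 8 libraries, which called 1227 higher and 1119 lower, 11 of the genes considered for naming were below the filter and gave no value, among them AT1G04217, *GRP-3*, AT5G55620 and AT1G21090. Among the 123 named genes checked, which leave out *ERD14*, *XERO1* and *XERO2*, no log2FC of a called gene reversed its sign in the first pair under these alternatives. Medians of lists did turn, to -0.05 for ABA synthesis and breakdown (0.27 in the main result) in that fit, to -0.01 for sodium transport and 0.01 for ABA receptors without WT NaCl replicate 2 and replicate 4 in that order, and to -0.11 and -0.12 for expansins without the filter and with DESeq2. Low counts limited precision most among the 5516 genes that were neither called nor alike.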
